A study of Homo sapiens with 12 samples.

Results

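Untreated A2780 cells, a human line established from an ovarian carcinoma, were described here from the 6 control arrays of the study, out of 12 arrays in all. They were chosen by their titles, which lack the tag of the treated arrays. Of these control arrays 3 were Affymetrix HGU133plus2 GeneChips (AFFX), which read each transcript with sets of short oligonucleotides and fluorescence. The other 3 were Applied Biosystems Human Genome Survey Microarrays (ABI), which read most genes with 1 long oligonucleotide and chemiluminescence. The control cells received no compound and were collected at the 6 hour time point, in medium with fetal calf serum, and only attached cells were taken. RNA of 3 biological replicates was combined into 1 pool, and all 6 arrays carry aliquots of that pool. The spread between arrays is therefore technical, it says nothing of the spread between cultures, and precision is limited by having 3 arrays per platform. The other 6 arrays, of cells exposed to a cell cycle inhibitor, were not used.

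AFFX signals are the log2 values deposited by the authors, and ABI signals are the log2 of their deposited linear signals, on a scale that is not stated. Log2 signals were therefore not set against each other between platforms. A total of 16186 genes had a probe naming that gene alone on both, and each gene was represented by its brightest probe. The percentile of a gene is its rank among these 16186 genes on a platform, from the dimmest to 100 for the brightest. Brightness also depends on how well a probe binds, so an order of genes is an order of signals and not of mRNA amounts. No detection flags were used. In their place a floor was set on each array at the 95th percentile of genes for odorant, taste, trace amine and vomeronasal receptors, which belong to sensory cells. On AFFX, 112 such genes gave floors of 5.86, 5.85 and 5.91, and on ABI 219 gave 1.68, 1.37 and 1.63 (log2). A gene is called above the floor when it passed on all 3 arrays of a platform, and at the floor when it passed on none. A gene at the floor may be silent or too weak for its probe.

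Most epithelial ovarian carcinomas keep features of the Müllerian duct, such as the transcription factor PAX8, and of epithelia, such as keratins and the adhesion molecule E-cadherin. Cells that have undergone an epithelial-mesenchymal transition lose the latter and make vimentin, N-cadherin and matrix proteins under the control of factors such as ZEB1 and TWIST1. Cultured tumour cells also spend much of their mRNA on ribosomes, glycolysis and the cytoskeleton.

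Untreated cells gave the same broad order of genes on both platforms. Above the floor on AFFX were 9886 genes (61.1%) and on ABI 6763 (41.8%). Both platforms together placed 6251 genes (38.6%) above the floor and 5151 (31.8%) at it. A further 3091 (19.1%) were above on AFFX and at the floor on ABI, and 412 (2.55%) the other way round. AFFX had 2.21 probe sets per shared gene on average. The mean was 2.56 for genes above on AFFX and at the floor on ABI, 2.45 for genes above on both and 1.64 for genes at the floor on AFFX and above on ABI. Whether probe number plays a part in these counts was not tested. The Spearman correlation of mean signals across the 16186 genes was 0.751. The 9 pairs of single arrays, 1 from each platform, gave 0.733 to 0.752. Among the genes above the floor on both it was 0.667. Arrays of 1 platform correlated at 0.997 to 0.998 on AFFX and 0.952 to 0.955 on ABI. Genes are not independent replicates, and these values describe 1 RNA pool.

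The platforms agreed most at the bright end. Of the 1619 brightest genes on AFFX 66.2% were also among the 1619 brightest on ABI, while of the 1618 dimmest 26.8% were shared. The median difference of a gene was 11.4 percentiles, and 420 genes (2.59%) differed by more than 50. The spread between arrays ran the same way on ABI. There the median SD of a gene was 0.103 (log2) in the brightest of 4 equal groups of genes and 0.514 in the dimmest, while on AFFX it was 0.0803 and 0.0988. Order among dim genes was thus poorly fixed on ABI.

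**Figure D1:**
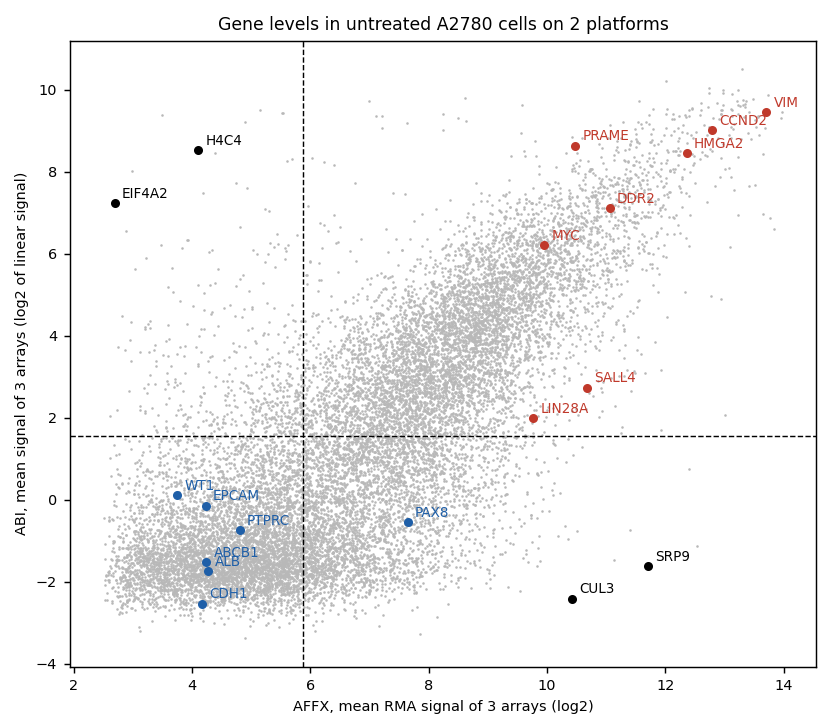
Each grey point is 1 of 16186 genes, at its mean log2 signal over 3 AFFX arrays (horizontal) and 3 ABI arrays (vertical), and dashed lines mark the mean floor of each platform. Genes in red (VIM, CCND2, HMGA2, PRAME, DDR2, MYC, SALL4, LIN28A) lie above both floors, genes in blue (CDH1, EPCAM, WT1, PTPRC, ALB, ABCB1) at both, PAX8 above only the AFFX floor, and black marks genes ranked far apart.

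Genes of the ribosome led both platforms. The brightest 500 genes of AFFX and of ABI had 302 in common (1.87% of all shared genes), of which 46 encode cytosolic ribosomal proteins (15.2%). Of 58 ribosomal protein genes measured on both, 54 were above the floor on both, with median percentiles of 99.8 on AFFX and 99.6 on ABI. Of the 20 genes with the highest mean percentile, 17 were ribosomal and the others were MEST, VIM and UBB. Ribosomal protein genes have many processed pseudogenes, so some of their probes may read more than 1 locus.

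RPS18 (Entrez Gene ID 6222), a protein of the small ribosomal subunit, had the highest mean percentile of all. Its log2 signal was 13.76, 13.73 and 13.71 on the 3 AFFX arrays, and 10.02, 9.72 and 9.89 on the 3 ABI arrays, which is rank 5 and 9 of 16186. RPLP1, of the ribosomal stalk, was the brightest gene on ABI at 10.51, 10.73 and 10.26 and rank 27 on AFFX at 13.38, 13.26 and 13.24. RPL41, the smallest ribosomal protein, was the brightest on AFFX at 14.01, 13.98 and 13.95 and rank 38 on ABI at 9.33, 9.57 and 9.49. Arrays of a platform differed by less than 0.5 for each of these genes.

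The other 3 of the 20 brightest genes were MEST, VIM and UBB. MEST, an imprinted gene of mesoderm expressed from the paternal allele, had 13.33, 13.18 and 13.20 on AFFX and 9.79, 10.12 and 10.08 on ABI. VIM (Entrez Gene ID 7431), the intermediate filament vimentin, had 13.75, 13.67 and 13.71 on AFFX and 9.43, 9.52 and 9.41 on ABI, or 13.71 ± 0.0381 and 9.46 ± 0.0579 (mean and SD, n = 3). For VIM, 1 of 2 AFFX probe sets was above the floor. UBB, a polyubiquitin gene, had 13.41, 13.30 and 13.35 on AFFX and 9.55, 9.68 and 9.46 on ABI. All of these lay among the brightest 40 genes on both platforms.

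Other families were well represented in the 302 genes, as counted after their values were seen. They included 26 of 68 subunits of oxidative phosphorylation, 13 of 33 proteasome subunits, 9 of 19 heterogeneous nuclear ribonucleoproteins, which package pre-mRNA, and 7 of 8 members of the CCT chaperonin family, which folds actin and tubulin. Medians of these 4 families were 96.8 to 99 on AFFX and 96.7 to 98.7 on ABI. All 11 reference genes that were measured on both were above the floor on both. Their spread of ranks was wide, from GAPDH, the glycolytic dehydrogenase, at percentiles 99.9 on AFFX and 99.5 on ABI, to TBP, the TATA-binding protein, at 63.9 and 77.5.

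mRNAs of ribosomal proteins are known to begin with a run of pyrimidines, through which the mTOR pathway controls their translation. The start sites of the brightest genes are shown to let this be read off. RefSeq promoters of build GRCh38.p14 were matched for 12951 of the 16186 genes. Each line gives the 30 bases centred on the annotated start of the gene, on its own strand, and so covers upstream bases and the beginning of the first exon. Capitals mark a run of at least 8 bases that are C or T within 10 bases of the start.
RPS18 (chr6:33272060-33272089, + strand): cgcgtcacttccgCTCTCTCTTCCacagga
RPLP1 (chr15:69452803-69452832, + strand): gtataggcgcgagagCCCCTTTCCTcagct
RPS3 (chr11:75399503-75399532, + strand): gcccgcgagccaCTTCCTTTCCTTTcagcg
RPL41 (chr12:56116618-56116647, + strand): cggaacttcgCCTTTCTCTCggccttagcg
RPS6 (chr9:19380222-19380251, - strand): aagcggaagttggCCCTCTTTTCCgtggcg
RPL3 (chr22:39319609-39319638, - strand): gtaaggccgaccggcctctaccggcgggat
RPL12 (chr9:127451392-127451421, - strand): ccgcgcgatttccggcctctcggctttcgg
VIM (chr10:17228226-17228255, + strand): gtgcaatcgtgatctgggaggcccacgtat
UBB (chr17:16381275-16381304, + strand): cgctgaggggagggcgtgggggaggggagg

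Start sites were read for 17 bright ribosomal protein genes, of which 12 hold such a run, as the first 5 lines do. RPS19 and RPS21 are counted there though they are not among the 20 brightest. RPS15A and RPL37, which are among those 20, were not read. RPL3, RPL9, RPL12, RPS29 and RPS4X hold none within that window, nor do MEST, VIM and UBB. In RPL9 a run of C and T begins inside the window and reaches past its edge, so it was not counted. Such a run was present in 36 of the 51 ribosomal protein genes with a promoter (70.6%), in 16.0% of the other genes of the shared bright list, and in 9.10% of all 27305 promoters. The annotated start of a promoter matched that of its gene for 88.8%, and a run out of this window would be missed. The match was chosen after the brightest genes were known and is a description of letters.

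Mesenchymal markers were above the floor far more often than epithelial markers. Of 24 mesenchymal and stromal markers 15 were above the floor on both platforms and 4 at it, with medians of 84.4 on AFFX and 73.1 on ABI. Of 22 epithelial markers none was above on both and 9 were at the floor on both, with medians of 34.4 and 29.9. For all shared genes the shares were 38.6% above and 31.8% at the floor. The labels call the line an ovarian carcinoma, and none of these epithelial markers was above the floor on both platforms.

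Besides VIM, the brightest mesenchymal markers included ACTA2, COL3A1 and POSTN. ACTA2, smooth muscle actin, had 12.73, 12.66 and 12.73 on AFFX and 9.0, 8.74 and 8.96 on ABI, though 1 of its 3 AFFX probe sets was above the floor. COL3A1, a fibrillar collagen, had 12.28, 12.16 and 12.26 on AFFX and 7.78, 7.55 and 7.61 on ABI. POSTN, the matrix protein periostin, had 12.34, 12.27 and 12.20 on AFFX and 7.59, 7.51 and 7.43 on ABI. These stood at percentiles of 97.8 to 99.5 on either platform. Lower in the list, CDH2 (N-cadherin) had 10.23, 10.08 and 10.03 on AFFX and 4.56, 4.44 and 4.21 on ABI, at percentiles 93.1 and 82.7. The regulators TWIST1 (percentiles 89.2 and 67.2) and ZEB1 (84.3 and 71.0) were above the floor on both as well. ZEB2, a relative of ZEB1, was at the floor on both with 4.37, 4.47 and 4.35 on AFFX and -1.25, -2.25 and -1.29 on ABI. COL1A1, the partner chain of COL1A2 in type I collagen, was above on AFFX with 7.66, 7.57 and 7.60, by 3 of 5 probe sets, and at the floor on ABI with 0.36, -1.25 and 0.58.

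CDH1, which encodes E-cadherin, was near the bottom of all genes. Its signal (Entrez Gene ID 999) was 4.25, 4.09 and 4.16 on AFFX and -3.18, -2.84 and -1.60 on ABI, or 4.17 ± 0.0769 and -2.54 ± 0.833 (mean and SD, n = 3), at percentiles 12 and 1.09. EPCAM, an epithelial surface protein, had 4.34, 4.18 and 4.18 on AFFX and -0.07, -0.40 and 0.03 on ABI, at the floor on both. The simple keratins were weak and split between platforms. KRT8 had 6.31, 6.24 and 6.05 on AFFX, above the floor, and 0.82, 0.61 and 0.44 on ABI, at it. KRT18, its partner, passed the AFFX floor on 1 of 3 arrays with 6.11, 5.78 and 5.89 and the ABI floor on none with 1.2, 0.97 and 0.91. KRT7 had 7.13, 7.22 and 7.11 on AFFX, by 1 of 4 probe sets, and -0.84, -1.06 and 0.45 on ABI, where 1 array stood apart from the others by more than 1. No simple keratin was thus above the floor on both. KRT19 was measured on AFFX alone and was at the floor with 4.60, 4.55 and 4.72. ESRP1, a splicing factor of epithelia, was at the floor with 4.96, 4.84 and 4.88 on AFFX and -2.56, -2.56 and -2.64 on ABI. Claudin 4 (CLDN4) alone went the other way, above the floor on ABI (2.61, 2.48 and 2.68, 1 of 3 probes) and at it on AFFX (5.82, 5.64 and 5.76).

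Markers of the Müllerian lineage and the ovarian surface were mixed. Of 17 such genes 3 were above the floor on both platforms, 9 at it on both and 5 above on AFFX alone, the last beside 19.1% of all genes. The shares above and at the floor were 17.6% and 52.9%, beside 38.6% and 31.8% of all genes. With the floor at the 99th percentile of the sensory receptor genes 1 of the 17 was above on both, beside 23.8% of all genes. MEIS1, a homeobox factor, was the brightest by its lower percentile, at 9.0, 8.91 and 8.95 on AFFX and 5.35, 5.34 and 5.18 on ABI. PAX2, a paired-box factor of the Müllerian duct and kidney, had 8.71, 8.51 and 8.42 on AFFX and 2.43, 1.85 and 2.06 on ABI. PAX8 (Entrez Gene ID 7849) was above the floor on AFFX at 7.65, 7.65 and 7.64, with 2 of 8 probe sets, and at the floor on ABI at -0.94, -1.12 and 0.40. FOLR1, the folate receptor that many serous carcinomas carry, gave a wider split. It had 9.22, 9.10 and 9.06 on AFFX with both probe sets above, and -1.36, -1.32 and -0.74 on ABI, which is percentile 84.2 against 25.8.

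WT1, MUC16 and MSLN, markers of serous carcinoma and of mesothelium, were at the floor on both platforms. WT1 had 3.74, 3.74 and 3.76 on AFFX and 1.25, -0.15 and -0.79 on ABI, MUC16, which carries the CA125 antigen, had 4.02, 4.12 and 3.93 on AFFX and 0.08, 0.25 and 0.50 on ABI, and MSLN, mesothelin, had 3.81, 3.90 and 3.90 on AFFX and -2.84, -1.84 and -1.56 on ABI. No ABI array passed its floor for these genes, although the WT1 values spread over 2 log2 units.

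**Figure D2:**
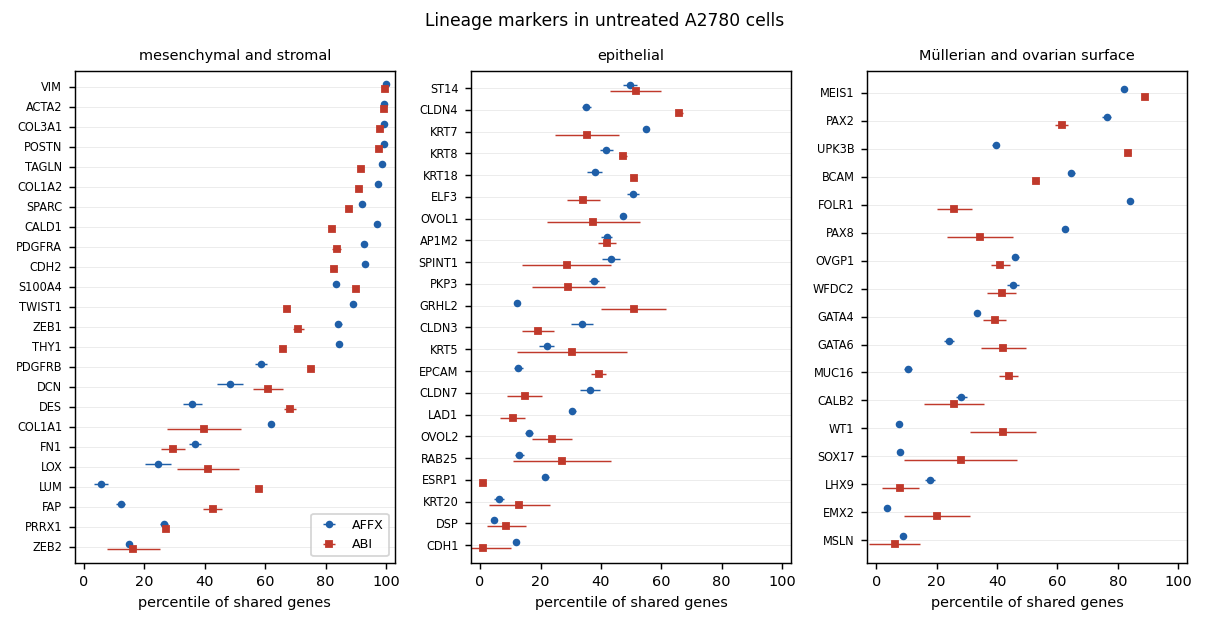
Percentile among 16186 shared genes (horizontal) of each marker on AFFX (blue circles) and ABI (red squares), as the mean signal's percentile with bars of 1 SD over 3 arrays, ordered by the mean of both. Mesenchymal markers reach from ZEB2 to VIM near 100, while none of the 22 epithelial markers exceeds 55.1 on AFFX or 66.0 on ABI.

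Of 12 germ cell and pluripotency markers 2 were above the floor on both (16.7%, beside 38.6% of all genes) and 6 at it on both (50%, beside 31.8%). SALL4, a zinc finger factor of embryonic stem and germ cells, had 10.74, 10.56 and 10.74 on AFFX and 2.80, 2.66 and 2.73 on ABI, above the floor on both. LIN28A, an RNA-binding protein that blocks let-7 microRNAs, had 9.92, 9.67 and 9.73 on AFFX and 2.25, 1.90 and 1.82 on ABI, also above on both. Both ranked higher on AFFX, by 1.26 and 1.07 normal scores (limma, adjusted p = 4.11e-06 and 1e-05). LIN28B, its paralog, was read on AFFX alone with 10.50, 10.34 and 10.33. HMGA2, an oncofetal chromatin protein and known let-7 target, is described with the oncogenes. POU5F1, the core pluripotency factor, was read on ABI alone and was at the floor with -2.06, -2.06 and -1.36. DDX4, a germ cell helicase, was at the floor on both. With the floor at the 99th percentile of the sensory receptor genes neither SALL4 nor LIN28A was above on both.

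Among 20 neural markers 2 were above the floor on both (10.0%, beside 38.6% of all genes) and 11 at it (55.0%, beside 31.8%). With the higher floor 1 was above on both, beside 23.8% of all genes. UCHL1, a deubiquitinase abundant in neurons, had 11.16, 11.03 and 11.21 on AFFX and 7.88, 7.78 and 7.92 on ABI, at percentiles 97.1 and 98.4. For UCHL1, 1 of 2 AFFX probe sets was above the floor. TUBB3, a neuronal tubulin, had 11.28, 11.13 and 11.25 on AFFX and 3.23, 2.79 and 3.03 on ABI. NES, the filament nestin, was read on AFFX alone with 11.10, 11.01 and 11.15. SOX11 was at the floor on both, with 4.05, 4.05 and 4.42 on AFFX and -1.94, -2.06 and -1.89 on ABI.

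Of 19 blood cell markers 9 were at the floor on both (47.4%, beside 31.8% of all genes) and 6 above on AFFX and at the floor on ABI (31.6%, beside 19.1%). The one above on both was GATA2, a factor also used outside blood, with 7.95, 7.76 and 7.92 on AFFX and 3.81, 3.49 and 3.75 on ABI. PTPRC, which encodes the leukocyte antigen CD45, had 4.75, 4.76 and 4.91 on AFFX and -0.76, -0.84 and -0.64 on ABI, at the floor on both. None of 13 endothelial markers was above on both, 6 were at the floor on both (46.2%) and 5 were above on AFFX and at the floor on ABI (38.5%). PECAM1 had 5.89, 5.95 and 5.88 on AFFX, where 2 arrays of 3 passed, and -2.12, -2.0 and -2.74 on ABI.

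Most genes restricted to other organs were at the floor. Of 56, none was above the floor on both and 40 were at it on both (71.4%, beside 31.8% of all genes), with medians of 24.8 on AFFX and 16.7 on ABI. ALB, serum albumin, had 4.43, 4.24 and 4.14 on AFFX and -2.25, -0.67 and -2.32 on ABI. Another 13 of the 56 were above on AFFX and at the floor on ABI, beside 19.1% of all genes. Among them were CRYGD, a lens crystallin, and KRT10, a keratin of skin. KRT10 had 9.89, 9.78 and 9.83 on AFFX by all 3 probe sets and -0.22, -2.84 and -1.79 on ABI. AMY2A, a pancreatic amylase, was read on ABI alone with 8.07, 7.68 and 7.70. Its near-identical amylase copies could share that probe.

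Many tissue-restricted genes start from a TATA box, so their promoters were set beside those of the bright genes. The motif TATAAA was sought on the gene's own strand in the 250 bases before the start. It was in 8 of 33 promoters of the tissue-restricted genes at the floor (24.2%), in 9.58% of all genes at the floor on both, in 2.83% of genes above on both and in 7.17% of all promoters. With either strand counted the shares were 33.3%, 13.2%, 4.55% and 11.1%. The median number of CG pairs per 300 bases was 4, 11, 27 and 14 in the same order. Among the genes in the brightest 500 of both platforms, 6.69% of promoters held the motif on the own strand, beside 5.58% of all shared genes. The median number of CG pairs was 25 in these bright genes and 23 in all shared genes. Examples from the genes at the floor are shown with the motif in capitals (RefSeq, GRCh38.p14, own strand).
MYH2, muscle myosin (chr17:10549672-10549701, - strand): catagctatccaTATAAAagagcccttgga
PRL, prolactin (chr6:22297050-22297079, - strand): atatcaaaggttTATAAAgccaatatctgg
FLG, filaggrin of skin (chr1:152325252-152325281, - strand): catggggcctgcTATAAAagggccattatc
ACTA1, muscle actin (chr1:229434107-229434136, - strand): gcccgcgggctaTATAAAacctgagcagag
CSN2, a milk casein (chr4:69965739-69965768, - strand): ttaaatatagtaTATAAAcagtcacagaag
SST, somatostatin (chr3:187670592-187670621, - strand): aataaaagattgTATAAAtcgtggggcatg

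In 7 of the 8 promoters the motif began 28 to 31 bases before the start, and in that of SST it began 215 bases before it. The log2 signals of MYH2 were 4.38, 4.66 and 4.57 on AFFX and -2.18, -3.47 and -1.74 on ABI. PRL had 4.16, 3.91 and 4.21 on AFFX and -2.74, -2.56 and -0.74 on ABI, with every array under its floor. A missing motif says nothing of how a gene is controlled.

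**Figure D3:**
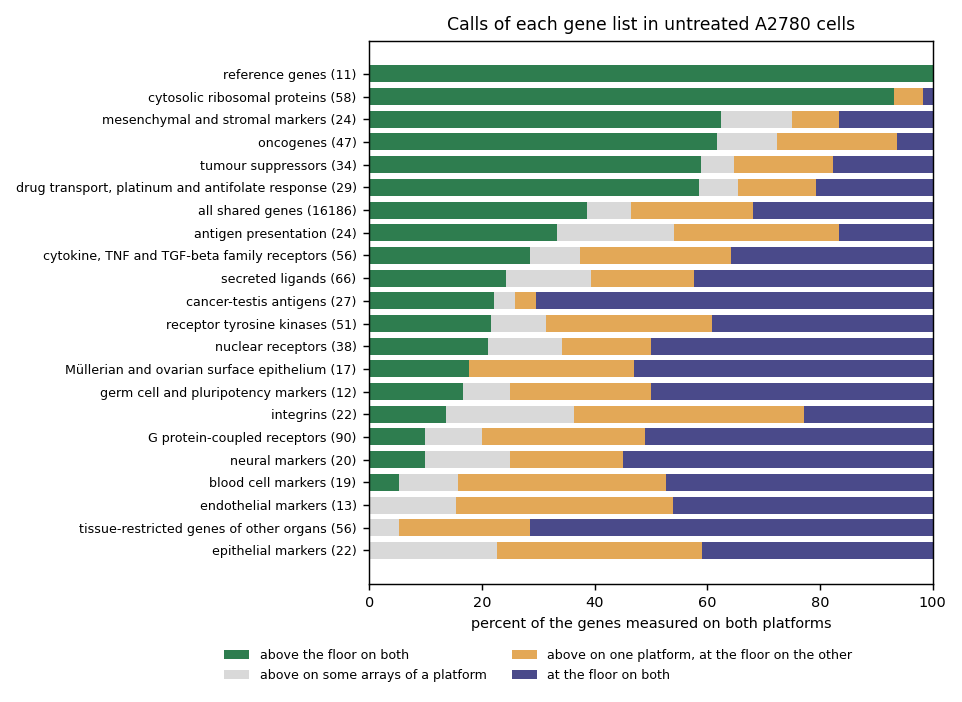
Bars give the percent of the genes of each list, measured on both platforms (number in brackets), that were above the floor on both (green), above on some arrays of a platform (grey), above on 1 platform and at the floor on the other (orange) or at the floor on both (blue). Reference genes, ribosomal proteins, mesenchymal markers, oncogenes, tumour suppressors and drug response genes stand above the bar of all 16186 genes. Tissue-restricted, epithelial and endothelial genes have no green part.

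Most oncogenes gave signals above the floor. Of 47 measured on both platforms, 29 were above the floor on both (61.7%, beside 38.6% of all genes). Another 10 were above on AFFX alone (beside 19.1%) and 3 at the floor on both (6.38%, beside 31.8%). Medians of the list were 83.6 and 69.9. With the floor at the 99th percentile of the sensory receptor genes 18 were above on both (beside 23.8% of all genes) and 7 at it. NPM1, a nucleolar protein, was the brightest, with 13.19, 13.12 and 13.06 on AFFX and 9.52, 9.48 and 9.5 on ABI. CCND2, the cell cycle cyclin D2, had 12.92, 12.73 and 12.73 on AFFX and 9.06, 8.97 and 9.01 on ABI. HMGA2 (Entrez Gene ID 8091) had 12.48, 12.31 and 12.30 on AFFX and 8.62, 8.35 and 8.39 on ABI, or 12.36 ± 0.0991 and 8.45 ± 0.143 (mean and SD, n = 3). All of these lay at percentile 99 or higher.

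Cyclins and kinases of the G1 phase differed in rank. CCND2 stood at percentiles 99.6 and 99.4. CCND1, cyclin D1, had 9.25, 9.33 and 9.13 on AFFX and 3.06, 3.00 and 2.87 on ABI, at percentiles 85.5 and 69.9. CDK4, their partner kinase, had 11.66, 11.59 and 11.67 on AFFX and 6.24, 6.08 and 5.90 on ABI. CDK4 thus lay above percentile 93 on both. CDK6, the related kinase, was above on AFFX with 2 of 7 probe sets, at 6.61, 6.61 and 6.52, and at the floor on ABI with -1.94, -2.56 and -1.89. CCNE1, cyclin E, had 10.12, 9.90 and 10.05 on AFFX, by 1 of 2 probe sets, and 3.79, 3.70 and 3.90 on ABI.

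MYC, the growth-promoting transcription factor, stood at nearly the same rank on both platforms. Its signal (Entrez Gene ID 4609) was 10.03, 9.86 and 9.98 on AFFX and 6.26, 6.22 and 6.15 on ABI, or 9.95 ± 0.0886 and 6.21 ± 0.0533 (mean and SD, n = 3), at percentiles 92.1 and 93.9. Its relative MYCN had 5.96, 5.84 and 5.87 on AFFX and 1.05, 0.49 and 0.96 on ABI, above the floor on 1 AFFX array of 3 and on no ABI array. Further oncogenes above on both were SET, HMGA1 and CDK4, at percentiles of 93.2 to 98.4. Opposite calls included that of YAP1, the Hippo pathway co-activator, with 10.12, 10.04 and 10.17 on AFFX by 3 of 3 probe sets and 1.47, 1.08 and 1.61 on ABI. AKT2 had 9.08, 8.98 and 8.99 on AFFX and 0.06, -0.01 and -0.56 on ABI. LMO2, MYB and MECOM, factors of blood cells and leukaemia, were the 3 at the floor on both.

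Of 34 tumour suppressors measured on both, 20 were above on both (58.8%, beside 38.6% of all genes). Another 6 were above on AFFX alone (beside 19.1%) and 6 at the floor on both (17.6%, beside 31.8%). Medians of the list were 62.8 and 65.3. With the higher floor 11 were above on both, beside 23.8% of all genes. MSH6, of mismatch repair, had 10.76, 10.57 and 10.55 on AFFX and 7.22, 7.22 and 7.09 on ABI. SMARCA4, the ATPase of a SWI/SNF remodeller, had 10.82, 10.60 and 10.65 on AFFX and 6.4, 6.23 and 6.27 on ABI. WIF1, a secreted inhibitor of Wnt, had 9.52, 9.41 and 9.37 on AFFX and 6.60, 6.53 and 6.49 on ABI. These 3 lay above percentile 87 on both platforms. BRCA1 had 8.84, 8.87 and 8.64 on AFFX and 3.91, 3.77 and 3.94 on ABI, and CDKN2A, which encodes the CDK4 inhibitor p16, 7.96, 7.83 and 7.82 on AFFX and 2.55, 2.26 and 2.20 on ABI, each above the floor on both. The 6 at the floor on both were SFRP1, FHIT, DCC, DAB2, OPCML and DIRAS3, of which DAB2, OPCML and DIRAS3 are known as genes often silenced in ovarian carcinoma. DIRAS3, an imprinted Ras relative, had 3.75, 3.75 and 3.89 on AFFX and -1.79, -1.64 and -1.36 on ABI.

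Of 51 receptor tyrosine kinases 11 were above on both (21.6%, beside 38.6% of all genes). Another 15 were above on AFFX alone (beside 19.1%) and 20 at the floor on both (39.2%, beside 31.8%). A floor at the 99th percentile left 6 above on both, beside 23.8% of all genes. DDR2 (Entrez Gene ID 4921), a collagen receptor, led with 11.17, 10.99 and 11.04 on AFFX and 7.21, 7.15 and 6.98 on ABI, and its percentiles of 96.9 and 96.8 nearly coincided. RYK, a Wnt co-receptor, had 9.58, 9.44 and 9.34 on AFFX and 5.98, 5.94 and 5.92 on ABI. FGFR1, a fibroblast growth factor receptor, had 10.29, 10.11 and 10.30 on AFFX with all 7 probe sets above. On ABI FGFR1 had 4.64, 4.36 and 4.39, by 1 of 3 probes. PDGFRA, receptor of platelet-derived growth factor on mesenchymal cells, had 10.11, 10.03 and 10.00 on AFFX and 4.62, 4.65 and 4.31 on ABI.

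The receptors most often named as targets in carcinoma were weaker or split. ERBB2 had 8.37, 8.32 and 8.39 on AFFX, by 1 of 3 probe sets, and 4.30, 4.28 and 4.09 on ABI. It was above the floor on both, at percentiles 73.5 and 81.0. EGFR was above on AFFX at 8.80, 9.72 and 9.28, a range of nearly 1 between arrays, and at the floor on ABI at 1.33, 1.16 and 1.32. MET, the receptor of HGF, had 6.56, 6.54 and 6.72 on AFFX by 1 of 4 probe sets, and -1.40, -0.97 and -1.89 on ABI. HGF is given with the secreted ligands. IGF1R had 6.01, 6.09 and 5.85 on AFFX and 1.16, 0.78 and 1.05 on ABI, passing on 2 AFFX arrays and on no ABI array. KIT, the stem cell factor receptor, was at the floor on both with 3.75, 4.02 and 4.19 on AFFX and -2.12, -2.40 and -1.64 on ABI.

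Nuclear receptors gave 8 of 38 above on both (21.1%, beside 38.6% of all genes) and 19 at the floor on both (50%, beside 31.8%). A floor at the 99th percentile left 3 above on both, beside 23.8% of all genes. NR6A1, the germ cell nuclear factor, had 8.55, 8.67 and 8.66 on AFFX and 6.41, 6.15 and 6.24 on ABI. ESRRG, an orphan relative of the oestrogen receptors, had 9.59, 9.36 and 9.24 on AFFX and 4.05, 3.74 and 3.71 on ABI. These led the list, ahead of RXRA at percentiles 82.9 and 75.1. ESR1, the oestrogen receptor, had 6.71, 6.48 and 6.83 on AFFX by 2 of 9 probe sets and -2.84, -1.32 and -0.43 on ABI, where the arrays spread over more than 2 log2 units and none passed. PGR, the progesterone receptor, had 4.20, 4.32 and 4.35 on AFFX and -2.47, -2.94 and -1.22 on ABI, at the floor on both. PPARA, a fatty acid sensor, ranked higher on ABI with 5.53, 5.24 and 5.30, against 6.12, 6.20 and 6.12 on AFFX by 1 of 9 probe sets (adjusted p = 3.55e-06, limma). NR2F6 had opposite calls, with 10.51, 10.36 and 10.46 and with 1.33, 1.2 and 0.76 on ABI.

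**Figure D4:**
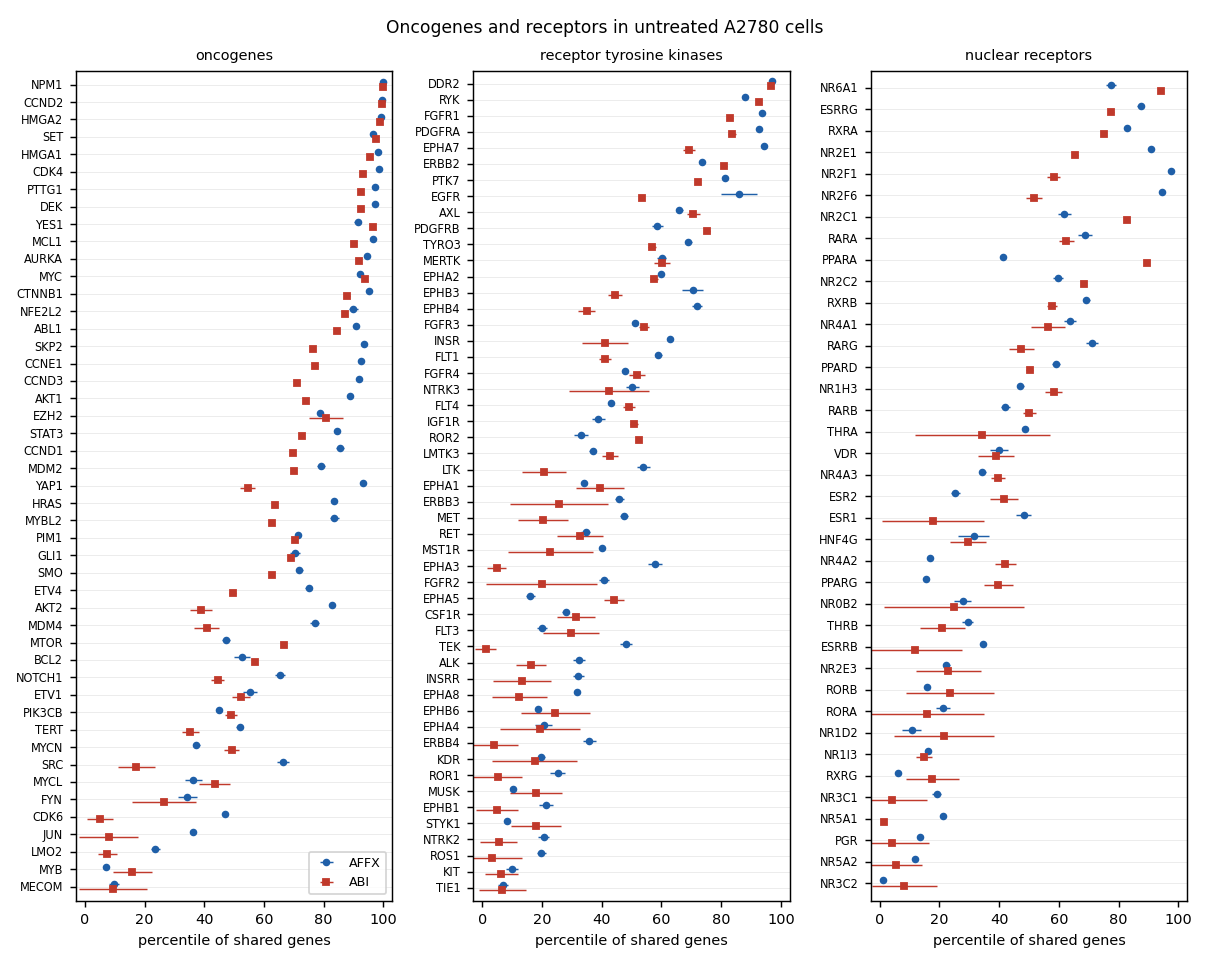
Percentile among 16186 shared genes (horizontal) of oncogenes, receptor tyrosine kinases and nuclear receptors on AFFX (blue circles) and ABI (red squares), with bars of 1 SD over 3 arrays. The median oncogene stood at 83.6 on AFFX and 69.9 on ABI, and only DDR2 of the receptors exceeds percentile 95 on both platforms.

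G protein-coupled receptors gave 9 of 90 above on both (10.0%, beside 38.6% of all genes) and 46 at the floor on both (51.1%, beside 31.8%). With the floor at the 99th percentile 4 were above on both, beside 23.8% of all genes. LGR4, which binds R-spondins and strengthens Wnt signals, led with 9.54, 9.43 and 9.09 on AFFX, by 1 of 3 probe sets, and 6.45, 6.33 and 6.43 on ABI. CCR1, a chemokine receptor of leukocytes, had 10.70, 10.56 and 10.68 by both probe sets and 4.17, 4.21 and 4.32. The Wnt receptors FZD2 (percentiles 98.0 and 71.3), FZD3 (79.4 and 79.0) and FZD7 (80.6 and 71.2) were above on both. Of these 90 receptors 22 were above on AFFX and at the floor on ABI, and 4 the other way round, beside 19.1% and 2.55% of all genes.

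Receptors of cytokines, the TNF family and the TGF-beta family gave 16 of 56 above on both (28.6%, beside 38.6% of all genes) and 20 at the floor on both (35.7%, beside 31.8%). The first count rests on the floor, since 2 were above on both with the floor at the 99th percentile, beside 23.8% of all genes. IFNGR2, of the interferon gamma receptor, had 9.82, 9.74 and 9.83 on AFFX and 4.87, 4.76 and 4.59 on ABI. FAS, a death receptor, had 8.44, 8.34 and 8.22 on AFFX and 4.22, 4.10 and 4.28 on ABI, and TNFRSF1A, a TNF receptor, 9.28, 9.08 and 9.33 on AFFX and 3.40, 3.17 and 3.03 on ABI. TGFBR1, a TGF-beta receptor, split widely, with 9.20, 9.10 and 8.82 on AFFX by 1 of 3 probe sets and -2.06, -1.89 and -1.84 on ABI.

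Integrins, which hold cells to the matrix, gave 3 of 22 above on both (13.6%, beside 38.6% of all genes). At the floor on both were 5 (22.7%, beside 31.8%). With the floor at the 99th percentile 12 were at it on both, beside 40.4% of all genes. ITGAV, the alpha chain of vitronectin receptors, had 11.84, 11.70 and 11.44 on AFFX and 6.99, 6.89 and 6.80 on ABI. ITGAE had 9.91, 9.67 and 9.82 on AFFX and 6.46, 6.31 and 6.37 on ABI, and ITGA5, of the fibronectin receptor, 8.95, 8.85 and 8.85 on AFFX and 3.01, 2.74 and 3.00 on ABI. ITGB1, the common beta chain, was read on AFFX alone, with 11.65, 11.56 and 11.47.

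Secreted ligands gave 16 of 66 above on both (24.2%, beside 38.6% of all genes) and 28 at the floor on both (42.4%, beside 31.8%). The floor at the 99th percentile left 7 above on both, beside 23.8% of all genes. MIF, a cytokine made by many cells, had 12.31, 12.21 and 12.12 on AFFX and 8.17, 8.16 and 8.14 on ABI. DKK1, an inhibitor of Wnt signalling, had 11.35, 11.08 and 11.18 on AFFX and 7.26, 7.10 and 7.13 on ABI, at percentiles 97.3 and 97.0. HGF, known as a product of mesenchymal cells, had 11.36, 11.31 and 11.09 with all 5 probe sets above, and 5.18, 4.93 and 4.93. All 3 exceeded percentile 87 on both platforms. VEGFA, the angiogenic factor, was above on AFFX with 4 of 4 probe sets at 9.14, 8.84 and 8.89, and at the floor on ABI at -0.17, 0.82 and 0.55. FGF8 was the reverse, with 3.62, 3.57 and 3.74 on AFFX and 3.31, 3.14 and 3.33 on ABI. IL6 and CXCL8, inflammatory cytokines of many ovarian carcinomas, were at the floor on both, chosen for mention after their values were seen.

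Genes of drug response gave 17 of 29 above on both (58.6%, beside 38.6% of all genes) and 6 at the floor on both (20.7%, beside 31.8%), with medians of 74.2 and 69.4. TYMS, thymidylate synthase, had 12.49, 12.38 and 12.36 on AFFX and 9.29, 9.33 and 9.45 on ABI. GSTP1, a glutathione transferase, had 11.62, 11.50 and 11.54 on AFFX and 7.84, 7.76 and 7.65 on ABI, with percentiles of 98.3 and 98.2. CYP1B1, a cytochrome P450, had 11.85, 11.69 and 11.76 on AFFX and 6.39, 6.3 and 6.44 on ABI. These were far above the floor on each array. ABCB1 (Entrez Gene ID 5243), the drug pump P-glycoprotein, had 4.18, 4.29 and 4.26 on AFFX and -1.15, -2.40 and -1.03 on ABI, at the floor on both. ABCG2, another pump, was also at the floor on both, with 3.67, 3.65 and 3.73 on AFFX and -0.92, -0.54 and -0.45 on ABI. ABCC1, a further transporter of drugs, was above on both with 8.95, 8.81 and 8.72 on AFFX and 2.3, 2.04 and 2.09 on ABI.

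Cancer-testis antigens, made in germ cells and some tumours, gave 6 of 27 above on both (22.2%, beside 38.6% of all genes) and 19 at the floor on both (70.4%, beside 31.8%). PRAME (Entrez Gene ID 23532) was the brightest, with 10.53, 10.45 and 10.47 on AFFX and 8.64, 8.76 and 8.49 on ABI, at percentiles 94.8 and 99.2. The others above on both were KIF2C, PBK, ATAD2, TTK and SPA17, most of which are known to act in mitosis or on chromatin of dividing cells. KIF2C, a kinesin of the mitotic centromere, had 9.72, 9.63 and 9.57 on AFFX and 6.15, 6.03 and 6.09 on ABI. MAGEA4 had 3.31, 3.34 and 3.14 on AFFX and -2.06, -0.38 and -1.60 on ABI, under every floor.

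In antigen presentation 8 of 24 genes were above on both (33.3%, beside 38.6% of all genes) and 4 at the floor on both (16.7%, beside 31.8%). B2M, the light chain of class I molecules, had 12.22, 12.10 and 12.09 on AFFX and 9.44, 9.5 and 9.27 on ABI. HLA-C had 11.28, 11.04 and 11.23 on AFFX and 8.87, 8.81 and 8.53 on ABI, though class I genes share much sequence and their probes may read each other. PSMB8, an inducible subunit of the immunoproteasome, was at the floor on both with 4.13, 4.0 and 4.43 on AFFX and -1.56, -2.12 and -1.79 on ABI. CIITA, the activator of class II genes, was at the floor on both with 5.58, 5.28 and 5.48 on AFFX and -1.09, -0.71 and 0.00 on ABI.

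The same RNA was placed at different ranks by the 2 platforms for a part of the genes. Ranks within each array were turned to normal scores, and ABI was compared with AFFX by limma over all 16186 genes. A gene was called at an adjusted p under 0.05 and a difference of at least 1 normal score, a size which at the extremes of the scale can stand for less than 1 percentile. Called were 2203 genes (13.6%), of which 1097 (6.78%) ranked higher on ABI and 1106 (6.83%) on AFFX. The fit was also limited to the 10398 genes above the floor on at least 1 platform, with ranks kept from all 16186 genes. It called 419 higher on ABI and 928 on AFFX. Of the 2203 called genes 1959 were at the floor on 1 platform or both, where ranks have no order, so the sizes of their differences are not fixed and are not read. An adjusted p under 0.05 at any size was found for 11539 (71.3%). Probe and platform cannot be told apart in these calls, and p-values measure technical spread.

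By the fitted values the rule named SRP9, CUL3, PTPRO, ZNF710 and SEPTIN9 as higher on AFFX, all of them at the floor on ABI. SRP9 (Entrez Gene ID 6726), of the signal recognition particle, had 11.89, 11.71 and 11.53 on AFFX and -0.36, -1.79 and -2.74 on ABI, and its AFFX percentile was 98.5. CUL3, the scaffold of a ubiquitin ligase, had 10.55, 10.31 and 10.40 by 1 of 3 probe sets, and -2.47, -1.94 and -2.84. PTPRO, a receptor phosphatase, had 12.55, 12.56 and 12.51 by 1 of 3 probe sets, and -1.60, -0.34 and -1.43. On ABI each of the 5 genes was at the floor on all arrays, by 1 probe or, for SEPTIN9, 2.

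EIF4A2, KIZ-AS1, LOC105372762, ZNF208 and H4C4 were named as higher on ABI. EIF4A2 (Entrez Gene ID 1974), an RNA helicase of translation initiation, had 2.66, 2.82 and 2.59 on AFFX and 7.29, 7.21 and 7.18 on ABI, where its percentile was 97.1. H4C4, a histone H4 gene, had 4.07, 4.16 and 4.09 on AFFX and 8.69, 8.47 and 8.41 on ABI. For EIF4A2 2 AFFX probe sets, and for H4C4 5, were left out because they name several genes. KIZ-AS1, annotated as an antisense RNA, had 3.34, 3.41 and 3.74 on AFFX and 9.42, 9.34 and 9.37 on ABI. It is named as antisense to KIZ, and whether its probes read its own strand alone is not known here.

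Annotation moved with these calls. Of the genes higher on ABI 9.30% had AFFX probe sets left out, of those higher on AFFX 2.17%, and of all genes 3.06%. A single AFFX probe set stood for 70.8% of the genes higher on ABI, 27.9% of those higher on AFFX and 41.7% of all. The part of probe number in the calls was not tested.

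Replication-dependent histone genes stood out among the calls, as seen after the values were known. The mRNAs of these genes are known to end in a stem-loop and mostly to lack a poly(A) tail. Of 41 such genes 22 were called higher on ABI (53.7%, beside 6.78% of all genes) and none higher on AFFX. Most of the 22 were at the floor on AFFX, so the sizes of their differences are not read. Of them H2BC1, H2AC16, H2AC8 and H3C6 were at the floor on ABI as well, and H1-5 had 0.41, 2.43 and -0.03 there. The median percentile of all 41 genes was 17.1 on AFFX and 59.2 on ABI. AFFX probe sets naming several genes had been left out for 21 of the 41, and of the other 20, 9 were called higher on ABI.

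**Figure D5:**
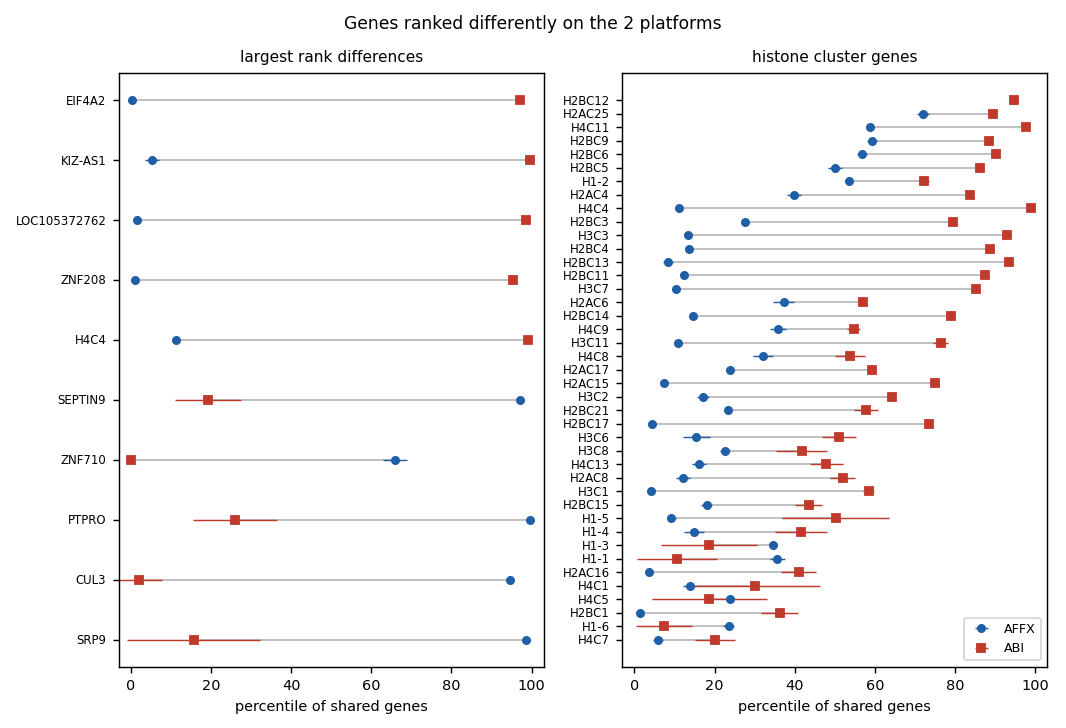
Percentile among 16186 shared genes (horizontal) on AFFX (blue circles) and ABI (red squares) with bars of 1 SD over 3 arrays, for the 5 called genes with the largest fitted differences in each direction (left) and 41 histone cluster genes (right). Grey lines join both values of a gene, and 37 of the 41 histone genes lie higher on ABI, several of them at the floor on both platforms.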

How the data were processed

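Untreated A2780 RNA was read on 3 AFFX and 3 ABI arrays, grouped by title. For AFFX the authors deposited log2 signals, which RMA had summarised and quantile-normalized (version not given in the sources used here). On ABI the authors deposited linear chemiluminescence intensity values after global median normalization, scale not given, which were turned to log2 here. Detection flags were not used here. Control probe sets of AFFX (62) were set aside. Of 54613 AFFX probe sets 41091 named 1 gene, 1801 several and 11721 none, and of 33096 ABI probes 21089, 563 and 11444. Probes naming 1 gene covered 19777 and 17192 genes, with symbols updated by Entrez Gene ID to RefSeq. The 16186 genes on both platforms were used, each by the probe with the highest mean log2 signal on the control arrays.

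Normal scores of within-array ranks were compared between platforms with limma 3.58.1 in R 4.3.3, Benjamini-Hochberg adjusted over all shared genes. The design was first run on simulated data in which most genes kept the same rank on both platforms, unlike these data. Correlations across genes carry no p.

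Members and lists were chosen with earlier results of these data known. Text names followed a rule: the 20 brightest genes, the 5 largest called rank differences each way, up to 6 brightest members and 4 opposite calls per list, and 41 fixed genes, 32 of them shared. ABCG2, ACTA1, CCND1, CIITA, CSN2, CXCL8, DAB2, DCC, DDX4, DIRAS3, ESRP1, FHIT, FLG, IL6, KIT, LMO2, MAGEA4, MECOM, MSLN, MYB, MYCN, MYH2, OPCML, PPARA, PRL, PSMB8, SFRP1, SST, TBP, TWIST1, VEGFA, ZEB1 and ZEB2 were added after their values were seen. Alternatives covered the probe, the floor, the scale, the thresholds and each array left out.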

Additional observations from a re-analysis of the deposited data

How the results depend on the processing

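With the mean of a gene's probes in place of the brightest, the Spearman correlation across platforms fell to 0.714, and among the 5940 genes with 1 probe on each platform it was 0.709. It was 0.667 among genes above the floor on both, and the Pearson correlation of log2 signals was 0.773. The genes with 1 probe on each platform held 1785 above the floor on both, 2623 at the floor on both and 909 ranked differently, out of fewer genes tested. A floor at the 99th percentile of the sensory receptor genes left 3853 genes above on both, and for 10 of 21 lists it moved the count above on both by over 1.5 times. Taken from the tissue-restricted genes, the floor raised the genes at it on both from 9 to 15 of the blood, 6 to 11 of the endothelial and 9 to 18 of the epithelial markers. The epithelial count was 16 with the mean of a gene's probes, and also 16 with the floor at the 99th percentile. Lists of the brightest 100 and 1000 genes shared 55 and 627. At a difference of at least 1.5 normal scores 739 genes were ranked differently. With the fit limited to the 10398 genes above the floor on at least 1 platform, 1347 were ranked differently. Of these 419 were higher on ABI and 928 on AFFX, against 1097 and 1106 over all shared genes. Ranks were still taken among all shared genes. RPL37A turned from higher on AFFX to 1.30 normal scores higher on ABI with the mean of its probes, and 12 of 58 named rank differences lost their call there. Percentiles of named genes depended on this choice too. With the mean of a gene's probes 208 were marked as moved and 20 as the same on AFFX, and 138 and 90 on ABI. With each array left out in turn, the correlation ranged from 0.746 to 0.753 and the shared brightest 500 from 301 to 302. Genes ranked differently ranged from 1991 to 2277, those above both floors from 6257 to 6393 and those at both from 5176 to 5231. With an array left out a call rests on fewer arrays, so the floor rule is looser. Both floor counts then lay above the 6251 and 5151 from all arrays.

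Replicate numbers name aliquots of 1 pool. Deviations of same-numbered arrays correlated at -0.00633, 0.00384 and 0.0186 between platforms, so the numbers do not pair the arrays, and 2131 genes were ranked differently with the replicate number as a block. Averaging linear ABI signals before taking the log2 gave a correlation of 0.749, and it gives no calls per array, so no floor counts were run on it. The SD of dim ABI signals limits what can be said of the order of genes near the floor.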
